A study of Mus musculus with 14 samples.

Results

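The genes of the cytoplasmic ribosomal proteins were taken by name. They are the protein-coding mouse genes whose symbol starts with Rpl or Rps and a digit, with Rplp0, Rplp1, Rplp2 and Rpsa, and without the Rps6k kinases and the pseudogene symbols. The rule gave 89 of 21887 protein-coding genes, and it used no ChIP value. By role, 31 encode proteins of the small (40S) subunit, 43 of the large (60S) subunit and 3 the P-stalk, and 12 are paralogs or other genes that carry the name.

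Ribosomal proteins pair with ribosomal RNA to build the subunits that translate mRNA. Their genes are short, are transcribed in almost every cell, and are known for compact promoters with an open stretch of chromatin around the start. They serve here as genes of a housekeeping kind in a study of a B-cell transcription factor.

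The study's question is whether EBF1, a transcription factor needed for the B lineage, brings Brg1 to chromatin through its C-terminal end. Brg1 is the motor protein of BAF complexes, which move nucleosomes with energy from ATP. The 9 ChIP-seq libraries each came with a peak list, and 5 further libraries were inputs. Each group had 1 library, so conditions could not be tested against each other and the spread between replicates is unknown.

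Brg1 was profiled in 5 fetal liver groups, all of EBF1 -/- genotype. These were c-kit+ progenitors of C57BL/6 embryos of days 16 to 18, infected with a pMys IRES GFP retrovirus and grown for 14 to 20 days on OP9 stroma with IL7, SCF and Flt3. The virus carried no EBF1 (empty), wild-type EBF1 (wt), EBF1 without its C-terminal domain (dC), EBF1 without residues 480 to 520 (dPLD), or EBF1 whose C-terminal domain had been replaced by the TA1 activation domain of GATA3 (F-GATA3). The labels place empty cells before the pro-B stage, dC and dPLD cells at a partial block before it, and wt and F-GATA3 cells at it. EBF1 form and stage therefore cannot be told apart. The remaining 4 groups were pro-B cells transformed with the A-MuLV virus, derived from EBF1 fl/fl cells, in which the endogenous EBF1 had been replaced by wt or dC. Brg1 and EBF1 were each profiled in both.

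Peaks near the labelled cell type's own genes were checked first. Of 9 pro-B genes, among them Cd79a, Cd79b, Pax5, Ebf1, Vpreb1, Igll1, Rag1 and Rag2, 3 had a Brg1 peak in the empty list and 9 in each of the other 4 fetal liver lists. In A-MuLV cells 7 had one with either form, and Rag1 and Rag2 had none. Of 5 stromal genes, Pdgfrb had a peak in the empty list only, Col1a1 had one in the wt, dC and dPLD lists only, and the others had none. Of 4 T-cell genes 1 to 3 had a Brg1 peak, depending on the list. Of 4 myeloid genes 1 or 2 had one, and of 3 erythroid genes 1 to 3. Peaks do not measure expression, and the part of other cells in the results was not tested.

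A gene counted as having a peak when a peak overlapped its body extended by 1 kb on each side by at least 1 bp. Ribosomal protein genes were short, with a median body of 3183 bp (374 to 16779) against 17169 bp over all protein-coding genes, and a short gene offers a smaller target. A pair of backgrounds is therefore given, the share of all protein-coding genes and the share of the other genes weighted to the same lengths. Intervals in parentheses are exact Clopper-Pearson 95% intervals over genes. They describe counting error in these libraries and say nothing on biological spread.

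In the fetal liver lists, Brg1 peaks lay over nearly all ribosomal protein genes with each form of EBF1, and over about 1 in 3 of them with the empty vector. In the empty list 32 of 89 had a peak, or 36.0% (26.1 to 46.8), where all coding genes gave 35.5% and genes of the same lengths 21.5%. In the wt list 83 of 89 had one, or 93.3% (85.9 to 97.5), against 55.9% and 39.2%. In the empty list the members' share was thus about that of all genes and above that of genes of the same lengths, which lay below the members' interval. In the wt list it was well above both backgrounds. Counting only peaks over no other coding gene left 63 members with a wt peak and 25 with an empty peak. No background is given for that setting.

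The 3 altered EBF1 forms gave nearly the same coverage as wt. With dC, 82 members had a Brg1 peak, or 92.1% (84.5 to 96.8), against 56.6% of all genes and 40.6% at the same lengths. With dPLD it was 81, or 91.0% (83.1 to 96.0), against 55.1% and 39.1%. With F-GATA3 it was 78, or 87.6% (79.0 to 93.7), against 52.7% and 36.6%. The intervals of wt and the 3 altered forms overlap widely, and 76 members (85.4%) had a peak in all 4 lists, where 49.1% of all genes did. A peak in all 6 Brg1 lists other than empty was found at 72 members (80.9%), against 38.6% of all genes. That count rests on unlike thresholds, since the A-MuLV lists reach down to a −log10 q of 1.37 (wt) and 1.33 (dC) and the fetal liver lists to 10.0.

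In A-MuLV cells, 80 members had a Brg1 peak with wt, or 89.9% (81.7 to 95.3), against 45.6% of all genes and 32.4% at the same lengths. With dC the count was 76, or 85.4% (76.3 to 92.0), against 45.1% and 31.3%. These lists hold weaker peaks than the fetal liver ones: at a −log10 q of at least 10, the minimum of the fetal liver lists, the counts were 37 with wt (41.6%, 14.3% at the same lengths) and 28 with dC (31.5%, 9.51%). EBF1 itself was called over few of the genes. The EBF1 wt list covered 6 members, or 6.74% (2.51 to 14.1), where all genes gave 13.8% and genes of the same lengths 5.44%. The EBF1 dC list covered 15, or 16.9% (9.75 to 26.3), against 23.7% and 11.0%. Both EBF1 shares are near the background at the same lengths, which lies inside their intervals. With the body extended by 10 kb the counts were 16 and 33, or 18.0% and 37.1%, against 12.6% and 22.8% at the same lengths. All genes then gave 19.9% and 32.9%, near the members' shares.

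**Figure D1:**
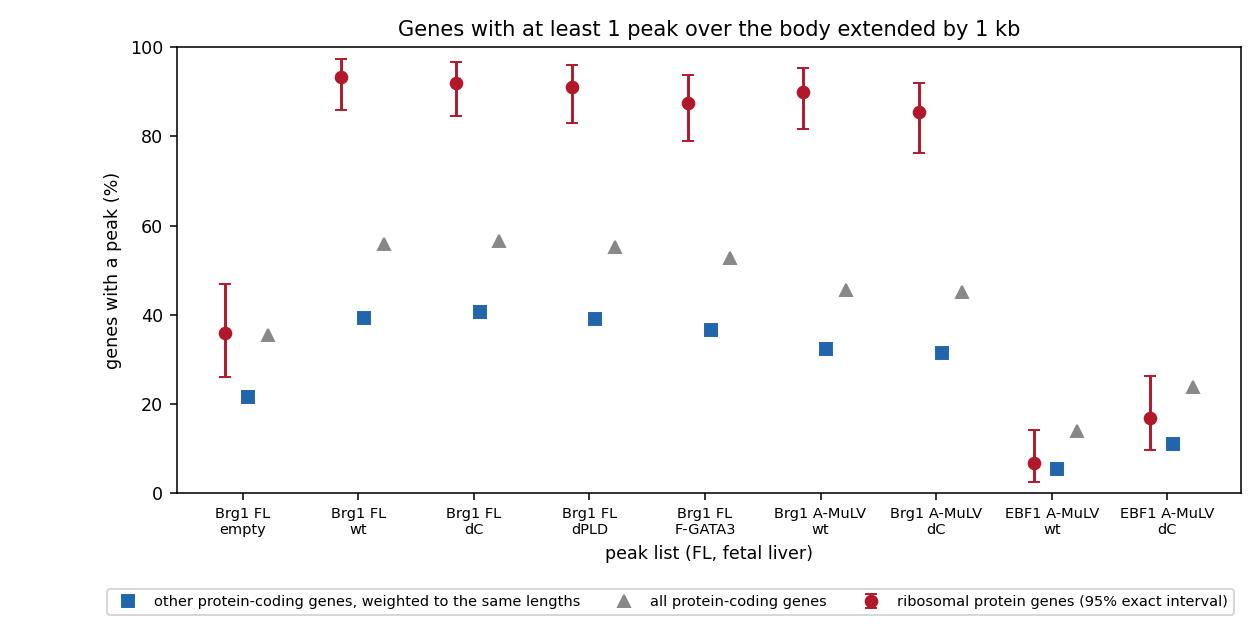
Share of genes with at least 1 peak over the body extended by 1 kb (vertical axis, %) in each of the 9 lists (horizontal axis); red points are the 89 ribosomal protein genes with exact 95% intervals, blue squares the other protein-coding genes weighted to the same lengths, grey triangles all protein-coding genes. The red points of the 6 Brg1 lists other than empty lie between 85.4% and 93.3%, above both backgrounds, and the EBF1 points lie below the grey triangles.

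The gain between empty and wt went one way in the full lists, and 2 members had the reverse with lists of equal length. A wt peak without an empty peak was found at 51 members, or 57.3% (46.4 to 67.7), where 23.2% of all genes and 19.6% at the same lengths did so. An empty peak without a wt peak was found at 0 members, where all genes gave 2.82%. Of the 51, 46 carried a peak in all 4 fetal liver lists with an EBF1 form, a pattern of 18.1% of all genes, and 42 of these also in both A-MuLV Brg1 lists, a pattern of 13.1% of all genes. A further 30 members had a peak in all 7 Brg1 lists, where all genes gave 25.5%. The counts of 42 and 30 take in the A-MuLV lists, which hold weaker peaks. The empty list is also the shortest, with 17687 peaks against 29354 for wt. Held to its 17687 peaks of highest −log10 p, the wt list still covered 70 members, or 78.7%, against 43.1% of all genes and 28.5% at the same lengths. At a −log10 q of at least 20, 1 member (1.12%) was left in the empty list and 71 (79.8%) in the wt list. All genes then gave 11.2% and 43.7%, and genes of the same lengths 4.21% and 29.2%.

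The members with a wt peak were then followed into the other lists. Of the 83, 32 also had an empty peak, or 38.6% (28.1 to 49.9). Other genes of the same length range gave 51.8%, and 52.7% once weighted to the members' wt folds, where fold is the authors' enrichment of a peak over its local background. The members' share was the lower one in each of 4 fold ranges. Among wt folds of 3.43 to 6.36 it was 19.0% against 29.2%, from 6.36 to 7.8 30.0% against 46.9%, from 7.8 to 9.04 52.4% against 59.9%, and from 9.04 to 13.7 52.4% against 74.6%. For the altered forms the other genes' share lay inside the members' interval. Of the 83, 98.8% (93.5 to 100.0) were called with dC, and 96.1% of other genes at the same wt folds. With dPLD it was 97.6% (91.6 to 99.7) against 95.6%, and with F-GATA3 94.0% (86.5 to 98.0) against 91.4%. In A-MuLV cells 75 of 80 wt members were called with dC, or 93.8% (86.0 to 97.9), against 90.7% of other genes.

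**Figure D2:**
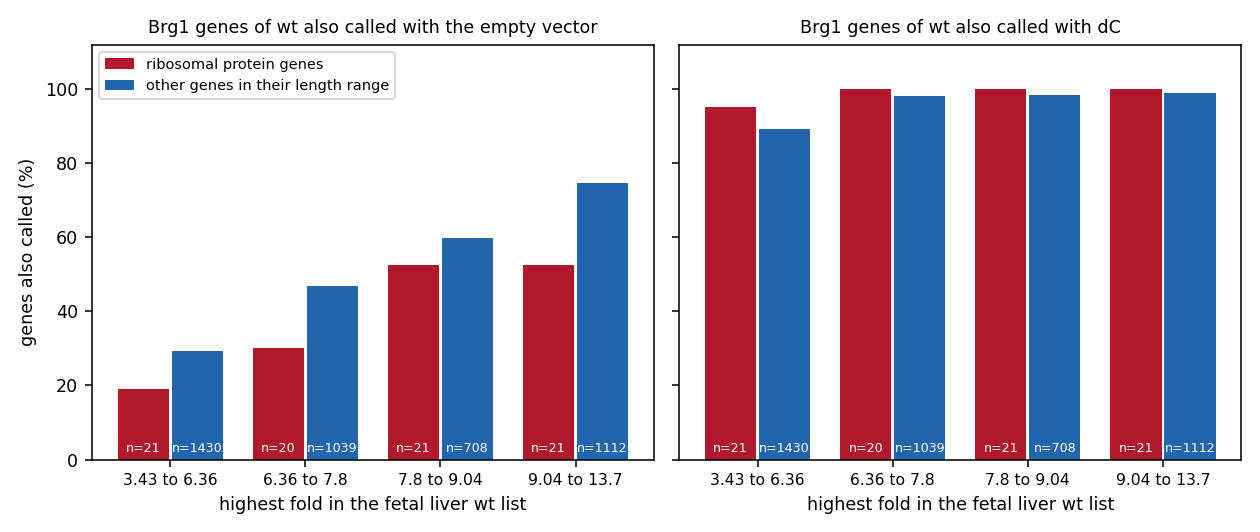
Share of genes with a fetal liver wt Brg1 peak that were also called in the empty list (left) or the dC list (right), in % (vertical axis), by the highest wt fold of the gene in 4 ranges (horizontal axis); red bars are ribosomal protein genes, blue bars other protein-coding genes in the same length range, and n is the number of genes in a bar. In the empty list the red bars lie below the blue ones in all 4 fold ranges, and in the dC list they lie above them.

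Peak height set the members apart less than peak presence did. For the highest peak of each gene, the members' median fold in the wt list was 7.8 (3.43 to 13.7), beside 7.52 for other genes in the length range. In the empty list it was 5.15 (4.05 to 7.96) beside 5.78. The dC list gave 7.06 (3.19 to 11.6) beside 7.51, dPLD 7.28 (3.77 to 11.6) beside 7.15 and F-GATA3 6.5 (3.9 to 11.6) beside 6.91. The A-MuLV medians were 6.64 with wt and 5.9 with dC, beside 6.42 and 5.65. Each fold is read within its own list only. In the wt list the members' peaks had a median width of 1680 bp, where all peaks of that list, at any position, had 1103 bp. The width of peaks over other genes was not computed, so this is not read as a trait of the members.

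Every gene of either subunit had a wt peak. All 31 genes of the 40S subunit had one, and 14 (45.2%) had an empty peak. All 43 genes of the 60S subunit had one, and 14 (32.6%) had an empty peak. With F-GATA3 the shares were 90.3% and 97.7%, and no difference between the subunits was tested. Their median wt folds were 7.83 and 7.8. The 12 paralogs and other genes differed: 6 had a wt peak, and the other 6 had no peak in any of the 9 lists. Those without any peak were Rpl10l, Rpl39l, Rpl32l, Rpl37rt, Rps23rg1 and Rps27rt. No peak in any list was found for 36.1% of all coding genes.

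Among the highest wt folds of the members were those of Rps18 (11.6), Rps27l (11.5), Rpl41 (11.3) and Rpl32 (11.2). Rps18 encodes a 40S protein, and its highest wt peak had a summit 4261 bp downstream of the start and another peak a summit at −277 bp. Rps27l is a paralog of the 40S protein gene Rps27. Of these 4, only Rpl41 had no empty peak, and the other 3 had empty folds of 5.36, 4.89 and 5.78.

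Among the highest empty folds were those of Rpl7l1 (6.78), Rpl27a (6.72), Rpl3 (6.47) and Rps9 (6.37). Rpl7l1 is a paralog of Rpl7, and its highest empty peak had a summit 9979 bp downstream of the gene start, in a window shared with 2310039H08Rik. Rpl27a and Rpl3, of the 60S subunit, were called in all 7 Brg1 lists. Rpl27a had folds of 10.0 in wt, 9.07 in dC and 11.0 and 11.6 in dPLD and F-GATA3, and Rpl3 had 9.66, 11.6, 11.6 and 10.8 in the same order. The Rpl27a summits lay at −248 and −187 bp from the start in wt and dC, but at −2185 and −2162 bp in dPLD and F-GATA3. Rps9, of the 40S subunit, had 4.45, 5.6 and 4.54 in wt, dC and dPLD and no F-GATA3 peak. Its summits lay at −157 and −21 bp in wt and dPLD, but 3177 and 3149 bp downstream of the start in empty and dC. For Rpl27a and Rps9 the folds thus come from summits at unlike positions.

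The gained members with the highest wt fold were Rpl41, Rpl11, Rps6, Rpl31 and Rpl27. Rpl41, which encodes the smallest ribosomal protein, lies at chr10:128548110-128549168 and had folds of 11.3 in wt, 10.9 in dC, 10.6 in dPLD, 9.78 in F-GATA3, 7.94 in A-MuLV wt and 7.25 in A-MuLV dC. Its wt peak, chr10:128546132-128549999, spans the gene and its start, with the summit 1389 bp downstream of the start. The gene body is 1059 bp long, so that summit lies past its far end, in a window shared with Zc3h10. Rps6, whose protein is phosphorylated downstream of mTOR, had 10.0, 9.17, 8.33, 7.66, 6.8 and 4.62 in the same order. Rpl31 had 9.9, 7.44, 5.34, 6.45, 5.67 and 4.14, and Rpl27 had 9.89, 8.53, 9.52, 8.26, 4.57 and 6.25. Each of these 4 was called in all Brg1 lists but empty, whereas Rpl11 was also missing from the A-MuLV dC list.

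Rpl11 and Rpl5 encode the proteins that bind Mdm2 with 5S rRNA when ribosome assembly is disturbed. Rpl11 had Brg1 folds of 10.4 in wt, 8.27 in dC, 4.88 in dPLD, 7.86 in F-GATA3 and 5.55 in A-MuLV wt. Rpl5 had 6.55, 5.94, 6.24 and 4.84 in the 4 fetal liver lists with EBF1, and 11.3 and 5.93 in A-MuLV wt and dC. Neither had an empty peak. Rps19, mutated in Diamond-Blackfan anaemia, was called in all 9 lists, with Brg1 folds of 5.16 in empty, 7.64 in wt, 9.02 in dC, 9.65 in dPLD, 5.33 in F-GATA3, 7.73 in A-MuLV wt and 7.6 in A-MuLV dC. Rps27a, which encodes a fusion of ubiquitin with a 40S protein, had no empty peak and 7.69, 8.37, 9.28, 7.25, 4.91 and 7.25 in the other Brg1 lists.

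The P-stalk genes, whose proteins recruit the GTPases of translation, differed from one another. Rplp2 had a peak in all 7 Brg1 lists, at folds of 4.7 in empty, 9.68 in wt, 9.61 in dC, 9.93 in dPLD, 7.9 in F-GATA3, 6.97 in A-MuLV wt and 7.98 in A-MuLV dC. Rplp0 had none in empty and 6.92, 6.89, 6.35, 6.15, 5.05 and 5.44 in the other 6. Rplp1 had 3.43 in wt, the lowest fold of any called member in that list, 3.19 in dC, and none in empty, dPLD or F-GATA3, yet 9.07 and 4.98 in A-MuLV wt and dC. Rpsa, a 40S protein also known as the laminin receptor, was called in all 7 Brg1 lists at folds of 5.55 to 7.18. Its highest summit lay 5885 and 5894 bp downstream of the start in empty and wt, and nearer the start in the other lists.

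In A-MuLV wt the highest Brg1 folds were at Rps10 (14.2), Rpl5 (11.3), Rpl19 (9.82), Rpl13a (9.45) and Rpl12 (9.45). Rps10, of the 40S subunit, had 5.47 in empty, 5.64 in wt, 7.34 in dC, 8.76 in dPLD, 6.95 in F-GATA3 and 8.79 in A-MuLV dC. Rpl19 had a peak in every Brg1 list too, at 4.77 in empty, 7.78 in wt and 8.25 in A-MuLV dC. Those summits lay at −70, −67 and −55 bp from the start, but its highest A-MuLV wt summit lay at −3991 bp. The order of members in the A-MuLV wt list was thus headed by other genes than in the fetal liver wt list.

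**Figure D3:**
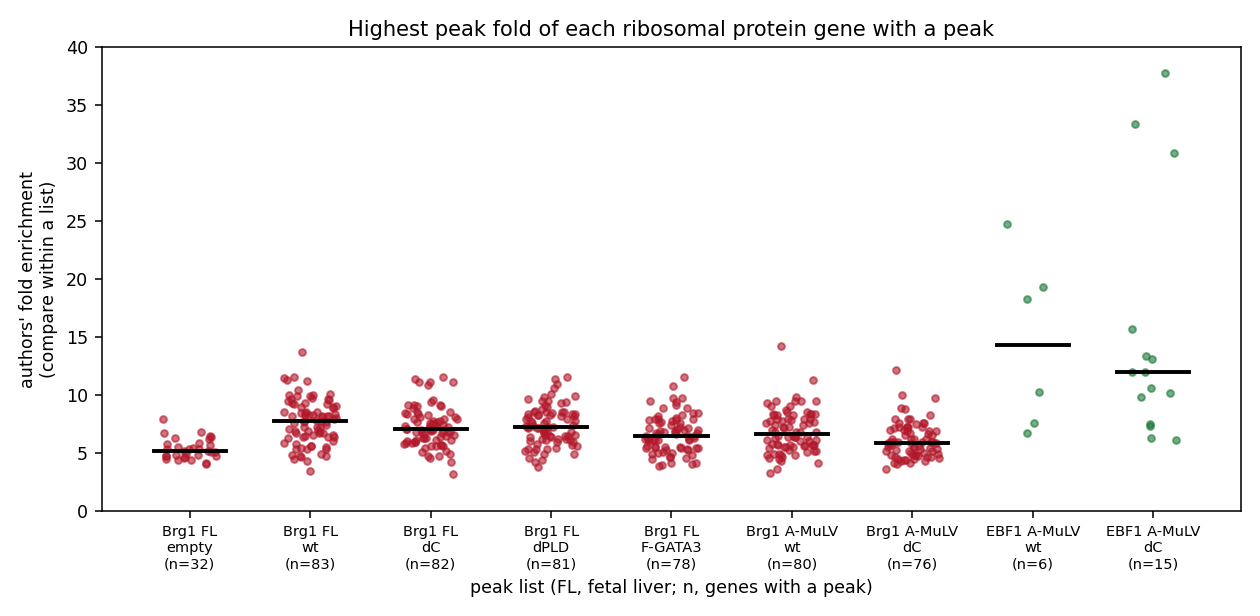
Highest peak fold of each ribosomal protein gene that had a peak (vertical axis, the authors' fold enrichment) in the 9 lists (horizontal axis); 1 point is 1 gene and bars are medians. The median is 5.15 in the empty list and 7.8 in the wt list, and 14.3 and 12.0 in the EBF1 wt and dC lists, which hold 6 and 15 of the genes.

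In the full lists, few members were called in 1 list of a pair and not in the other, in shares near those of all genes. Only Rpl36a had a wt peak and no dC peak (1 member, all genes 2.61%), and 0 had the reverse (3.3%). Rplp1 and Rpl37a had a wt peak and no dPLD peak (2 members, 3.08%), with 0 in reverse (2.25%). A wt peak and no F-GATA3 peak was found at 5 members (4.77%), among them Rps9, Rps4x, Rpl10 and Rplp1, with 0 in reverse (1.54%). In A-MuLV cells Rps9, Rps27, Rpl11, Rpl22l1 and Rpl37a were called with wt and not dC (5 members, 4.53%), and Rpl39 with dC and not wt (1 member, 4.05%). The fetal liver cases named here had a wt fold below the members' median: 4.3 at Rpl36a, 3.43 at Rplp1, 6.8 at Rpl37a, 4.45 at Rps9, 5.31 at Rps4x and 5.46 at Rpl10. These counts move with the threshold: at a −log10 q of at least 20 they were 9 (wt and not dC), 7 (wt and not dPLD) and 20 (wt and not F-GATA3), and 5, 4 and 3 in reverse. At a −log10 q of at least 10, the A-MuLV counts were 19 with wt only and 10 with dC only. The shares of all genes given above belong to the full lists and were not computed for the pairs at these thresholds. The counts at these thresholds are therefore not read as a trait of the members.

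The 3 subunit genes without an A-MuLV wt Brg1 peak, Rpl36a, Rpl39 and Rps4x, all lie on chromosome X, a grouping seen only after their values were known. The X holds 4 members in all, the other being Rpl10. Of the 4, 0 had an empty peak, 4 a wt peak, 3 a dC peak, 4 a dPLD peak, 2 an F-GATA3 peak, and 1 and 2 an A-MuLV Brg1 peak with wt and dC. Other X-linked genes in the length range also had few peaks: 1.39% in empty, 15.3% in wt and 7.34% in A-MuLV wt, where autosomal genes gave 25.8%, 45.0% and 38.1%.

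The Brg1 summit nearest to the gene start mostly lay close to it. A start was taken from a RefSeq promoter table (GRCm38.p6) that matched 69 of the 89 members by gene identifier. In the wt list 63 of them had a peak, the median distance of the nearest summit from the start was 0 bp, and 59 (93.7%) lay within 500 bp. The exceptions were Rpl41, Rpl3l, Rpl13a (−648 bp) and Rps25 (−580 bp), where a negative distance is upstream. Other genes in the length range had 76.0% within 500 bp, without weighting to the members' lengths. The wt summit of highest fold lay farther off at some members with more than 1 peak. It lay downstream of the start at Rpl7l1 (10005 bp), Rpl4 (6024), Rpsa (5894), Rpl38 (4627), Rps18 (4261), Rpl12 (3946) and Rpl7a (3807). In the empty list 19 of 23 were within 500 bp (82.6%, other genes 65.3%), at a median of 152 bp upstream. In A-MuLV wt it was 58 of 60 (96.7%, other genes 83.8%). Of the EBF1 summits, 0 of 4 members in wt and 3 of 12 in dC lay within 500 bp, where other genes in the length range gave 39.9% and 44.2%.

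**Figure D4:**
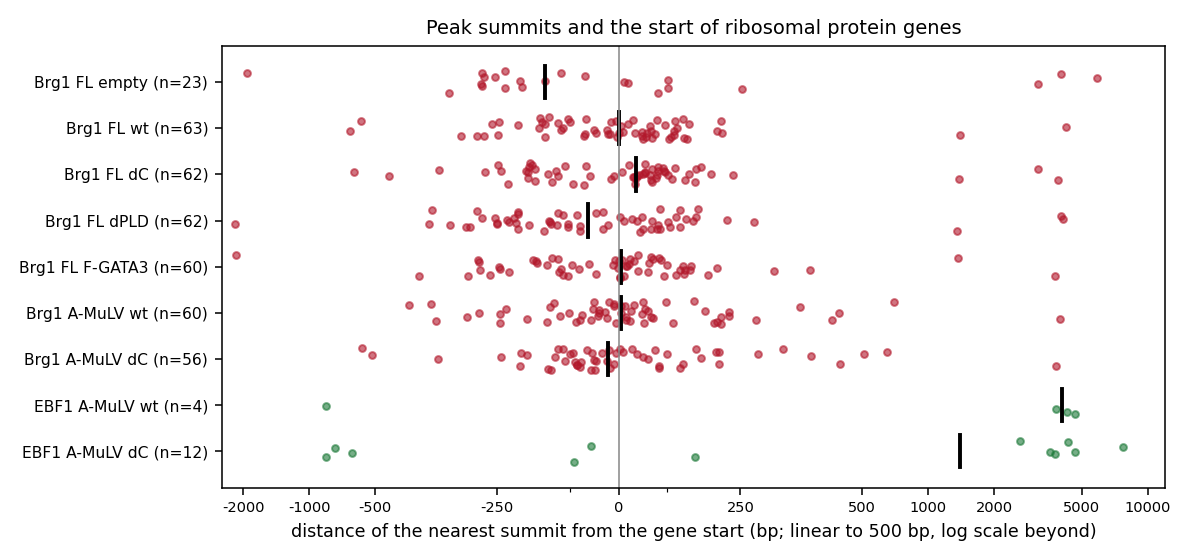
Distance of the nearest peak summit from the annotated gene start (horizontal axis, bp, linear to 500 bp and logarithmic beyond; negative is upstream) for ribosomal protein genes with a known start and a peak, by list; bars are medians. In the wt list 59 of 63 summits lie within 500 bp of the start, and in the EBF1 dC list 3 of 12 do.

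The 6 members called with both EBF1 forms included Rpl23a (fold 24.8 with wt and 37.8 with dC), Rpl13a (19.3 and 33.4), Rpl38 (10.3 and 15.7), Rps19 (7.58 and 10.6) and Rpl3l (6.72 and 13.4). All genes gave 12.2% with both forms. The Rpl23a peak (chr11:78182910-78183914) had its summit 76 bp outside the gene, a 60S protein gene. The Rpl13a peak (chr7:45129327-45129771) lay 840 bp upstream of the start. The Rpl38 summit (chr11:114672989-114673470) was 897 bp past the gene, and the Rps19 summit (chr7:24888601-24888868) 3817 bp downstream of the start and inside the gene. The Rpl3l peak (chr17:24736822-24737190) lay 837 bp outside its gene, a paralog of Rpl3, in the window of Msrb1.

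A peak with dC and none with wt was found at 9 members, or 10.1%, where all genes gave 11.6%, and the reverse at 0 members, where all genes gave 1.64%. The dC list is the longer one, with 11147 peaks against 6155, and held to its 6155 peaks of highest −log10 p it gave 5 members with dC only. The 9 were Rpl4 (fold 13.1), Rpl39 (12.0), Rps24 (12.0), Rpl12 (10.2), Rpl15 (9.86), Rpl10a (7.5), Rps18 (7.34), Rps15a (6.3) and Rpl36 (6.1). Of the 16 dC peaks over members, 7 also lay in the window of another protein-coding gene, and 9 members had a dC peak that did not, 4 of them with dC only. Only those at Rpl39, Rpl12 and Rpl15 had a summit within 500 bp of the start. The Rpl39 summit lay 56 bp upstream (peak chrX:37085024-37085582), the Rpl15 summit 91 bp upstream (chr14:18270936-18271218) and the Rpl12 summit 157 bp downstream (chr2:32961350-32962249). The Rpl15 and Rpl12 windows are shared with Nkiras1 and Lrsam1.

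The promoters of these 3 and of Rpl41, the gained member with the highest wt fold, show the bases that lie under the peaks. Each is the RefSeq sequence (GRCm38.p6) up to 250 bases upstream of the start, on the gene's strand, 5′ to 3′, without the bases of a neighbouring gene. Capitals mark a match to CCCNNGGGA, the EBF1 core with its following A, or to CCGGAAG, an ETS-type motif. Rpl39 is chrX:37085223-37085472 (minus strand), Rpl15 chr14:18270987-18271135 (minus), Rpl12 chr2:32961655-32961711 (plus) and Rpl41 chr10:128549169-128549418 (minus).
Rpl39: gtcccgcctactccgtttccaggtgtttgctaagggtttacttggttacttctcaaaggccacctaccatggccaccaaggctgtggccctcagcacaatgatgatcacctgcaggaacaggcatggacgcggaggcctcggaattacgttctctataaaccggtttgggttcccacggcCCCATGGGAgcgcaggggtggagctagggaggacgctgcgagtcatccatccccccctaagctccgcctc
Rpl15: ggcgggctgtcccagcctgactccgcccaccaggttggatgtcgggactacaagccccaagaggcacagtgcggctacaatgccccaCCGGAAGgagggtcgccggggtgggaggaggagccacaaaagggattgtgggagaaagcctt
Rpl12: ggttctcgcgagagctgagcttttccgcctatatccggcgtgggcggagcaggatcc
Rpl41: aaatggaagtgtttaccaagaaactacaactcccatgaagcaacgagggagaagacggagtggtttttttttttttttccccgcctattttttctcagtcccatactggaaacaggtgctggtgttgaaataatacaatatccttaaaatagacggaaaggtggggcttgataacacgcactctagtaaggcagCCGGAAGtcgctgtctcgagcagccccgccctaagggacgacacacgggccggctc

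Both strands were searched for CCCNNGGG, CCCNNGGGA, CTTCCG and CCGGAAG. The Rpl39 promoter held CCCATGGGA at positions −70 to −62 from the start, beside its EBF1 dC summit, and this match contains the shorter CCCNNGGG. Of all 21263 promoters in the table, 13.5% held CCCNNGGG and 6.24% CCCNNGGGA. The Rpl15 promoter held CCGGAAG at −62 to −56 and the Rpl41 promoter at −56 to −50, and each contains the reverse of CTTCCG. Of all promoters 8.98% held CCGGAAG and 17.1% CTTCCG. The Rpl12 stretch held none of the 4 strings. A match is a string of letters and does not show binding. Motifs were not counted over the members, since only 77.5% of them have a promoter sequence in the table.

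Most EBF1 peaks over members overlapped a Brg1 peak of the same cells. Of the 6 EBF1 wt peaks over members, 5 overlapped an A-MuLV wt Brg1 peak, where 72.0% of that whole list did. Of the 16 EBF1 dC peaks, 10 overlapped an A-MuLV dC Brg1 peak, where the whole list gave 46.1%. Of the same 16, 11 overlapped a fetal liver wt Brg1 peak and 3 an empty one. Brg1 was also called where EBF1 was not. Among the 74 members without one in either list, 68 (91.9%) had a fetal liver wt Brg1 peak, as did all 15 members with one, where 25.4% of all genes had an EBF1 peak in either list. In the empty list 9 of those 15 had a Brg1 peak, and 23 of the 74 (31.1%) did. The median wt Brg1 fold was 8.16 with and 7.54 without an EBF1 peak. EBF1 was profiled in A-MuLV cells and not in fetal liver cells here.

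The other genes of the translation machinery mostly had a Brg1 peak as well in each full list with a form of EBF1. Of 115 such genes outside the naming rule, 56 (48.7%) had a peak in empty, 107 (93.0%) in wt, 113 (98.3%) in dC, 111 (96.5%) in dPLD, 103 (89.6%) in F-GATA3, and 104 (90.4%) and 109 (94.8%) in A-MuLV wt and dC. All protein-coding genes gave 35.5%, 55.9%, 56.6%, 55.1%, 52.7%, 45.6% and 45.1% in the same order. Among the 115, 78 encode proteins of the mitochondrial ribosome, of which 35 (44.9%) had an empty and 72 (92.3%) a wt peak. Of 17 genes of ribosome biogenesis, such as Ncl and Npm1, 11 had an empty and 15 a wt peak. Of 5 elongation factor genes 4 had an empty peak, and of 12 initiation and poly(A)-binding genes 6. These groups have longer genes, with median bodies of 7690 bp (mitochondrial ribosome), 19090 bp (biogenesis), 5879 bp (elongation) and 21782 bp (initiation) against 3183 bp. Their shares were not weighted for length, and no difference from the ribosomal protein genes was tested.

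Fau and Rack1 encode ribosomal proteins under other names. Neither had an empty or an EBF1 peak, and both had a peak in the other 6 Brg1 lists. Fau had folds of 10.3 in wt, 6.07 in dC, 6.28 in dPLD, 4.92 in F-GATA3, 7.56 in A-MuLV wt and 3.99 in A-MuLV dC. Rack1 had 9.18, 5.51, 5.88, 6.08, 8.99 and 5.87. EBF1 was called at 15 of the 115 (13.0%) with wt and at 31 with dC. The highest EBF1 folds among them were all at mitochondrial ribosome genes: Mrpl27 (16.7 with wt, 28.5 with dC), Mrps15 (9.41, 24.4), Mrps33 (10.9, 22.8), Mrps27 (13.3, 21.4) and Mrpl1 (14.3, 19.9).

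**Figure D5:**
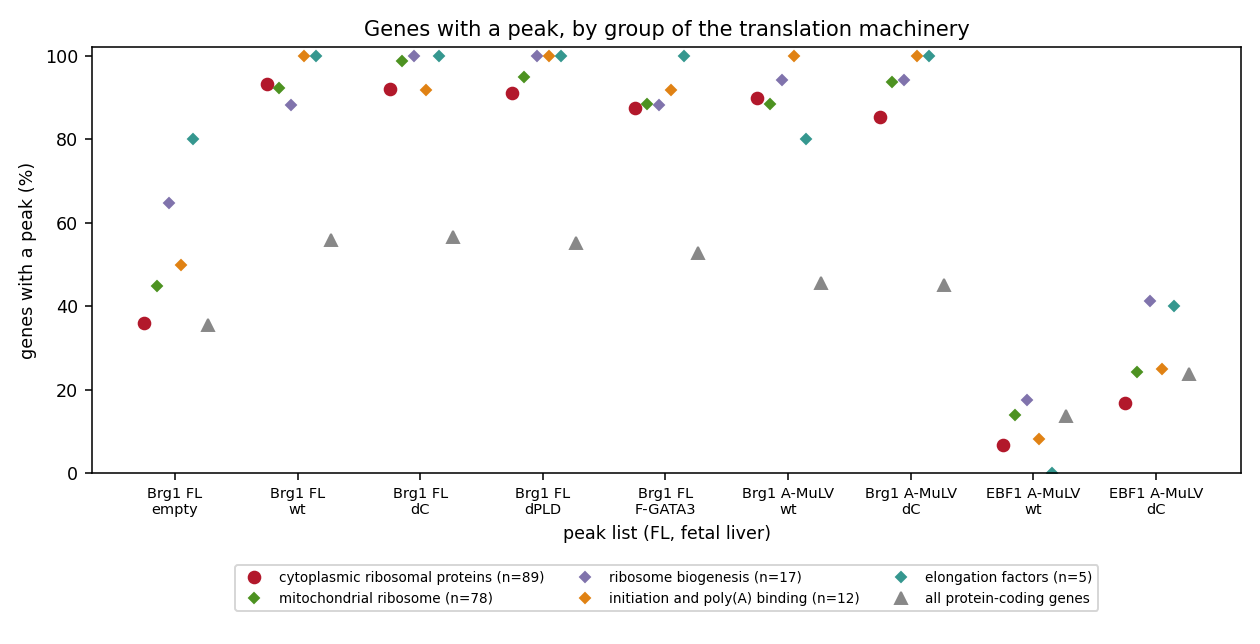
Share of genes with at least 1 peak (vertical axis, %) in the 9 lists (horizontal axis) for the 89 cytoplasmic ribosomal protein genes, for 4 other groups of the translation machinery and for all protein-coding genes. In the wt list every group lies at 88.2% or above, where all protein-coding genes lie at 55.9%.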

How the data were processed

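ChIP-seq of Brg1 and EBF1 was analysed from 9 MACS2 peak lists of mouse cells, 1 library per group, and signal tracks and reads were not used here. Tools in the submitters' processing notes are MACS2 2.1.2, Bowtie2 2.3.3.1, deepTools 3.3.1 and SAMtools 1.9, with the build GRCm38. Which input served which library, the peak threshold and the treatment of duplicates were not given in the sources used here, and the sequencing depth is unknown. A gene without a peak is therefore not shown to lack the protein. Per the labels' protocols, fetal liver cells were fixed with 2% formaldehyde and EGS, A-MuLV cells with 1% formaldehyde, with EGS for Brg1 and without it for EBF1.

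The authors' fold is the ratio of ChIP pileup to local background at the summit. The authors' −log10 p and −log10 q belong to the same summit. The score that the authors deposited equals the −log10 q multiplied by 10, without its decimals, in nearly every peak. The smallest −log10 q was 1.37 (wt) and 1.33 (dC) for A-MuLV Brg1 and 10.0 for each other list, so these lists differ in how weak a peak they hold.

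Peaks of the autosomes, X and Y were joined by at least 1 bp to gene bodies of the RefSeq GRCm38.p6 table, extended by 1 kb. The length-weighted share uses 10 length bins of the other genes, and the fold-weighted share uses 4 bins of wt fold. Of the members, 35 have another coding gene in their window. Positions and sequences come from the RefSeq promoter table, which matched 69 of 89 members by gene identifier. The overlap code was tested on simulated peaks. Python 3.11.15, pandas 2.3.3, numpy 2.4.6, scipy 1.17.1 and matplotlib 3.10.9 were used.

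Members and gene lists were chosen with earlier results of these data known. The named genes are all members with an EBF1 peak, the 5 highest folds in the empty, wt and A-MuLV wt Brg1 lists, members called in 1 list of a pair only (the 5 highest where there were more), members with no peak, Rplp0, Rplp1, Rplp2, Rpsa, Rps27a, Rps19, Rpl5 and Rpl11, the 5 highest EBF1 folds among the other translation genes, and Fau and Rack1. Some genes that the rule names are not reported here. The X-linked members as a set were singled out after their values were seen.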

Additional observations from a re-analysis of the deposited data

How the results depend on the processing

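Of 168 values under other settings, 128 stayed within 1.5 times the reported count and 40 did not. The fetal liver wt, dC, dPLD and F-GATA3 counts and the count with wt and not empty were within it under every setting. Keeping only peaks over no other coding gene still lowered them, to 63 (wt), 59 (dC), 58 (dPLD), 54 (F-GATA3) and 39 (wt and not empty). No share of all genes is given for that setting. Depth is unknown, and a call depends on each list's threshold. A minimum −log10 q of 10 lowered the A-MuLV Brg1 counts to 37 (wt) and 28 (dC), with 19 called with wt only and 10 with dC only. All genes then gave 22.5% and 16.5%, and other genes of the same lengths 14.3% and 9.51%. A minimum of 20 left 1 member in empty, 3 in A-MuLV wt and 2 in A-MuLV dC, with 3 and 2 in 1 A-MuLV list only. These members were 1.12%, 3.37% and 2.25%, against 11.2%, 4.81% and 2.73% of all genes. Genes of the same lengths gave 4.21%, 2.1% and 1.07%. That minimum gave 9 members with wt and not dC, 5 the reverse, 7 with wt and not dPLD, 4 the reverse, 20 with wt and not F-GATA3 and 3 the reverse. Lists of equal length (17687 fetal liver, 24420 A-MuLV Brg1 and 6155 EBF1 peaks) gave 2 with empty and not wt, 12 with wt and not dC, 6 the reverse, 6 with dPLD and not wt, 10 with wt and not F-GATA3, 5 the reverse and 5 with EBF1 dC and not wt. Without extension, 3 members had an EBF1 wt peak, 2 a wt and no dC Brg1 peak, and 4 an A-MuLV dC and no wt Brg1 peak. An extension of 10 kb gave 16 with EBF1 wt, 33 with EBF1 dC, 17 with EBF1 dC only, 0 with wt and not dC and 3 with wt and not F-GATA3. Counting summits in place of overlaps gave 1 with dC and not wt, 4 with wt and not dPLD and 1 with F-GATA3 and not wt. Keeping only peaks over no other coding gene, chosen after seeing the data, gave 9 with EBF1 dC, 4 with EBF1 dC only, 1 with empty and not wt, 4 with wt and not dC, 6 with wt and not dPLD, 1 the reverse and 9 with wt and not F-GATA3. Leaving out 9 members, the paralogs and Rps19bp1 that the setting named, moved none of the counts past 1.5 times. The cause of these moves was not tested beyond what each setting removes or adds. For pairs of lists, the shares of all genes were computed in the full lists only. No paired analysis was possible because each group had 1 library and no result came from a test.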
